A study of Mus musculus with 9 samples.

Results

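Transcripts of 10 genes of the circadian clock were followed in the smooth muscle layer (media) of mouse femoral arteries: *Arntl*, *Clock*, *Npas2*, *Per1*, *Per2*, *Per3*, *Cry1*, *Dbp*, *Nr1d1* and *Nr1d2*. They were taken by gene name from the deposited tables, where all 10 had a row in each table, out of 16750 genes listed in at least 2 tables. The 9 RNA-seq libraries, all from C57BL/6 mice, form 3 groups of 3. Sham arteries were the sham control, injured arteries were taken at day 14 after wire injury, and inhibitor-treated arteries were taken at day 14 after wire injury from mice given VS-4718, an inhibitor of focal adhesion kinase (FAK) (50 mg/kg orally, 2 doses each day over 2 weeks). Citrate was the vehicle, and the labels do not say which of the other mice received it. Per the labels' protocol, adventitia and fat were stripped under a microscope and the lumen was flushed with lysis reagent to remove endothelial and immune cells, although markers of all these cells were measured in every group (values below). The sources used here give neither age nor sex, nor the number of animals behind a library, the light schedule or the time of day of collection. The p-values therefore measure the spread between these libraries, which may be technical.

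The circadian clock is a daily feedback loop of transcription that runs in most cells, smooth muscle of the vessel wall included. BMAL1, the product of *Arntl*, pairs with CLOCK or its relative NPAS2 and binds E-box sequences. There it switches on the *Per* and *Cry* genes, whose proteins in turn block the pair, as well as *Dbp*, *Nr1d1* and *Nr1d2*. The nuclear receptors REV-ERBα (*Nr1d1*) and REV-ERBβ (*Nr1d2*) bind elements shared with the ROR receptors and repress *Arntl*, and DBP activates genes through D-box elements. In most mouse tissues *Arntl* RNA therefore peaks at nearly the opposite time of day from *Nr1d1* and *Dbp* RNA, and vascular tone and blood pressure vary with the same daily rhythm.

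The sequence elements that carry this loop were looked for in RefSeq promoter windows of the GRCm38.p6 assembly, each with 250 bases before and 50 bases after an annotated start. For 9 of the 10 genes, all but *Per2*, 13 such windows were found. On both strands the letters searched were CACGTG (E-box), CACGTT (a variant E-box), TTATGTAA (D-box), TAGGTCA (core of the REV-ERB/ROR element) and TGACGTCA (cAMP response element), and no match overlapped another. The windows below are shown because they hold a match, which stands in capitals, and each runs 5′ to 3′ up to the base before the start.

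*Per1*, chr11:69098699-69098948, plus strand: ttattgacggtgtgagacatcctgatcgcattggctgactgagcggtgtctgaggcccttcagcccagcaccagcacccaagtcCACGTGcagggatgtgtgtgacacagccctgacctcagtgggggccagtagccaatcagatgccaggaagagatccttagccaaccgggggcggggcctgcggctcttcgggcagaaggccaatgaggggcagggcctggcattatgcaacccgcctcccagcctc

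*Cry1*, chr10:85185055-85185304, minus strand: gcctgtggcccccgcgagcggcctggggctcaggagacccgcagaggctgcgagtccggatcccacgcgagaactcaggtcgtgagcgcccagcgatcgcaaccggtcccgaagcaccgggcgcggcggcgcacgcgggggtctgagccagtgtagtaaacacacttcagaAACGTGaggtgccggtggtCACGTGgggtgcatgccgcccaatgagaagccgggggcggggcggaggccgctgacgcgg

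*Nr1d1*, chr11:98775378-98775627, minus strand: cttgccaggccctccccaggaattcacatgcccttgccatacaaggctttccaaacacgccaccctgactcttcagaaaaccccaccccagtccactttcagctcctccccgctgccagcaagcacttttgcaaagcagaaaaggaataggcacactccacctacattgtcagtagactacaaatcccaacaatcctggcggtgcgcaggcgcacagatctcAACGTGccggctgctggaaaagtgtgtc

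*Per3*, chr4:151044666-151044915, minus strand: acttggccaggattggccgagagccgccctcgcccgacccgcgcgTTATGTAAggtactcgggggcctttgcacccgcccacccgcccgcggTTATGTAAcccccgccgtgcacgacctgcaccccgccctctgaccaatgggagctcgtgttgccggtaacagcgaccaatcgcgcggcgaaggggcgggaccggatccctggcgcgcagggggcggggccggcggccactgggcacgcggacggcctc

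*Arntl*, chr7:113207531-113207557, plus strand: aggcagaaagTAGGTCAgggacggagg

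The *Per1* window held an E-box beginning 166 bases before the start. The *Cry1* window held an E-box 60 bases before the start and a variant E-box, read on the other strand as AACGTG, 79 bases before it. A variant E-box on the other strand lay 28 bases before the *Nr1d1* start. Both D-boxes of *Per3* lay upstream, at 205 and 158 bases before the start. The last line is a stretch of 27 bases around the REV-ERB/ROR core of *Arntl*, which begins 31 bases after one of its annotated starts. Over 32851 mouse promoter windows of 300 bases, 7.15% held the E-box, 4.68% its variant, 0.938% the D-box, 2.61% the REV-ERB/ROR core and 1.79% the cAMP response element, for which none of the 13 windows of the clock genes had a match. Of the 13 windows, 2 held the E-box, 2 its variant, 1 the D-box and 1 the REV-ERB/ROR core. All windows of *Clock*, *Npas2*, *Dbp* and *Nr1d2*, 1 of *Arntl* and 1 of *Per1* held no match. A match is a description of letters and not of binding.

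Levels are given as normalised counts, reads divided by one factor per library so that all 9 libraries share a scale, in the order of replicates 1, 2 and 3 of a group, and errors on levels are SD over 3 libraries. Between 14676891 and 21248740 reads were recovered per library. Each of the 8 smooth muscle markers was detected in every library, with a summed level of 495700 to 665500 in sham, 148700 to 173900 in injured and 582200 to 591800 in inhibitor-treated arteries. A lower level in bulk tissue may mean fewer cells of a type or less RNA per cell, and these cannot be told apart. The 12 macrophage markers summed to 4583 to 6253, 37010 to 56220 and 5970 to 10430 in the same order of groups. The 4 erythroid markers measured summed to 70.3 to 349 in the other libraries and to 37170 to 88050 in the inhibitor-treated ones. The 8 endothelial markers summed to 22560 to 34680 in sham, 29840 to 44740 in injured and 27870 to 29450 in inhibitor-treated arteries, and the 6 adipocyte markers to 18130 to 43610, 31870 to 48060 and 18770 to 23090, so RNA of these cells was present in every library. The 6 fibroblast markers summed to 68540 to 80200, 167900 to 268800 and 61500 to 69010. The 5 neutrophil markers summed to 30.5 to 44.7, 1058 to 4865 and 2366 to 2645, the 8 lymphocyte markers to 22.1 to 80.7, 280.5 to 600.5 and 281.2 to 1138, and the 6 Schwann cell markers to 1450 to 2395, 2968 to 4625 and 2034 to 3309. Of these lists, the erythroid gene *Epb42* and the neutrophil gene *Cxcr2* were each at 0 in at least 1 library, and no other marker measured was. Single libraries also stood apart. Injured replicate 2 had a mean log2 level of skeletal muscle markers of 14.49, where the other injured libraries had 11.61 and 10.69, and sham replicate 3 had 11.1, where the other sham libraries had 9.10 and 8.67. Inhibitor-treated replicate 2 had 11.04, where the other inhibitor-treated libraries had 7.80 and 9.23, and is not among those set aside below. Hepatocyte markers were at 10.59 in inhibitor-treated replicate 3 against 2.94 to 4.29 in the 8 others, where *Apoa2*, *Fga*, *Fgb*, *Fgg* and *Cps1* were at 0 in at least 1 library. Injured replicate 2, sham replicate 3 and inhibitor-treated replicate 3 are called below the 3 libraries that stood apart. Each count of clock genes is also given without them, where a comparison leaves out those of its own groups. The part of other cells in the results was not tested.

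Divided by exon length, the clock output genes were the most abundant of the 10 in sham arteries and *Arntl* the least. *Dbp* stood at 2380 ± 472 normalised counts per kilobase of exon and *Nr1d1* at 1662 ± 737, with overlapping libraries. *Nr1d2* (839 ± 57.0), *Per2* (662 ± 206) and *Per1* (554 ± 87.4) followed, and each of these overlapped its neighbour in that order. *Per3* (312 ± 73.9) lay below all of them. *Cry1* (109 ± 41.3) and *Clock* (87.0 ± 13.2) overlapped each other, and *Npas2* (15.4 ± 5.18) and *Arntl* (3.37 ± 2.70) lay below, each without overlap with the gene before it. *Arntl* rested on 6 to 148 reads per library, so its values carry the most counting error of the 10. In injured arteries the top of the order was close together, with *Dbp* at 871 ± 49.4 and *Nr1d1* at 734 ± 190, overlapping each other. In inhibitor-treated arteries *Nr1d1* (1933 ± 268) and *Dbp* (1738 ± 532) again overlapped, and the other 8 genes had lower means.

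**Figure D1:**
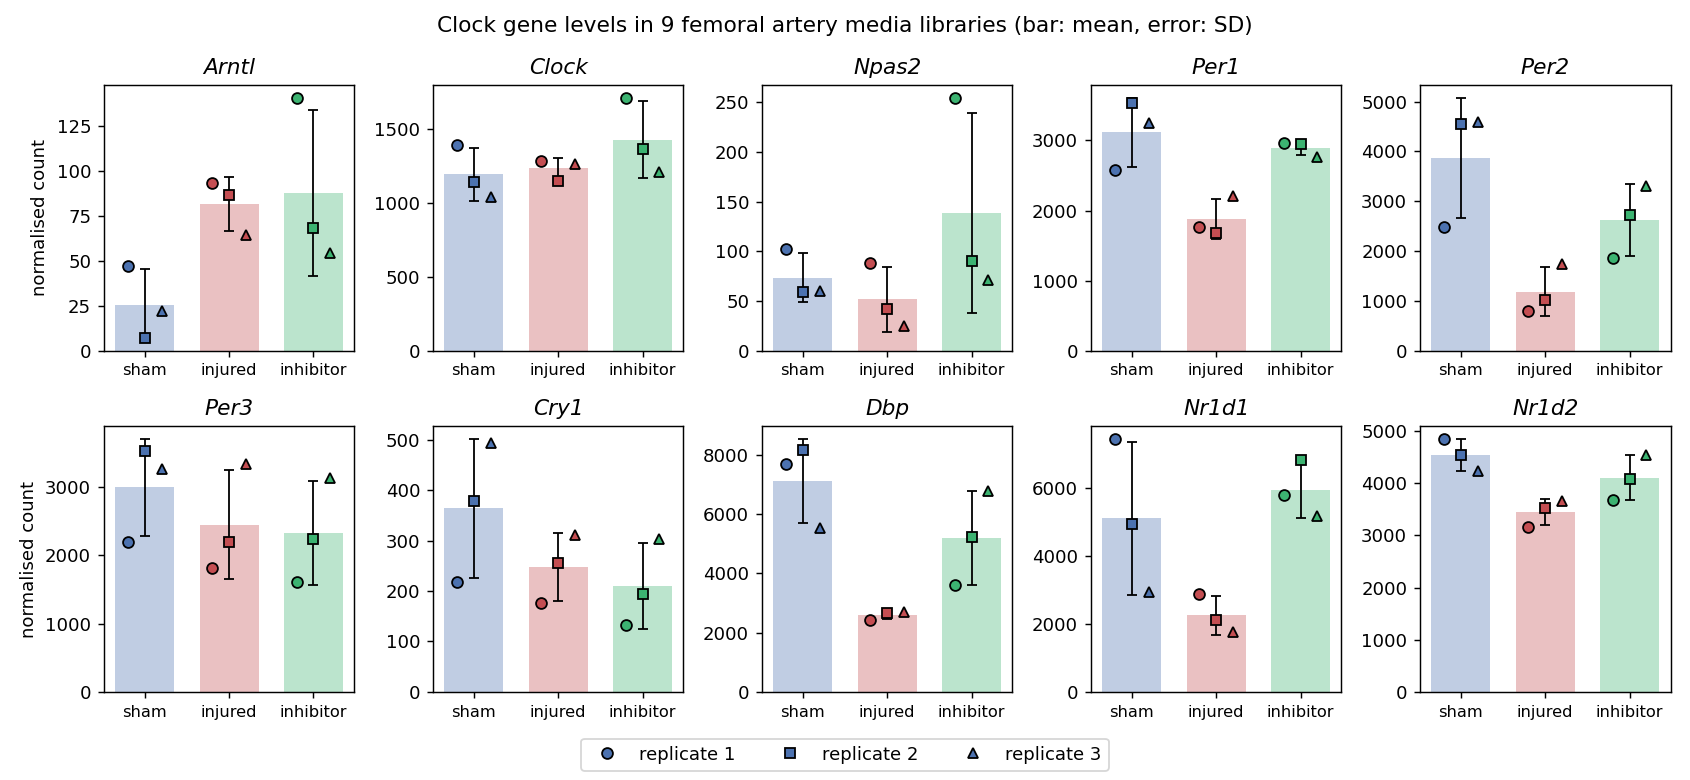
Normalised counts of the 10 clock genes in each library, 1 panel per gene with its own axis from 0; bars are group means, error bars SD over 3 libraries, and the marker shape gives the replicate number. *Dbp* in the 3 injured libraries (2437 to 2706) lies below all sham and inhibitor-treated libraries, while *Arntl* in the 3 sham libraries (7.05 to 47.2) lies below all others.

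Injured arteries were compared with sham arteries to ask which transcripts differ 14 days after wire injury. The time of day of collection is not given for any group. In this and the later comparisons, a difference in it between groups therefore cannot be told apart from injury or treatment, and was not tested. *Arntl* rose and *Per1*, *Per2*, *Dbp*, *Nr1d1* and *Nr1d2* fell, so that 6 of the 10 clock genes passed the test, 1 upward and 5 downward. Of the genes that BMAL1 drives, *Per3* and *Cry1* did not pass, nor did *Clock* and *Npas2*. The largest fall was that of *Per2*, by 1.74 ± 0.32 on the log2 scale, and *Arntl* rose by 1.97 ± 0.58. The test was limma on log2(normalised count + 1) within the deposited table of these 2 groups, two-sided, with Benjamini-Hochberg adjustment over all genes of the table and a threshold of 0.05, and errors on log2 fold changes are SE. Over all 16278 genes tested 37.3% passed, 20.6% upward and 16.8% downward. The median log2 fold change of the 10 clock genes was -0.58, against -0.0026 over all genes.

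Among the activators, *Arntl* (ENSMUSG00000055116, GRCm38 chromosome 7, 113207465 to 113314126, plus strand) was at 47.2, 7.05 and 21.8 normalised counts in sham arteries and at 93.2, 86.5 and 64.5 in injured ones. The groups did not overlap, and sham replicate 2, with 6 reads, was the lowest library. The rise of 1.97 had a limma adjusted p of 0.0281, and without sham replicate 2 it was 1.29 (adjusted p = 0.0505). The authors' deposited table gives a smaller rise for *Arntl*, of 1.67. The call was likewise lost without injured replicate 1, injured replicate 2 or sham replicate 3 (adjusted p = 0.0600 to 0.0712). *Clock* (ENSMUSG00000029238, chromosome 5, 76209868 to 76304792, minus strand), which encodes the partner of BMAL1, was at 1395, 1145 and 1041 in sham and 1286, 1149 and 1266 in injured arteries. Its log2 fold change was 0.05 ± 0.13 (adjusted p = 0.794) and was below 0 when libraries were scaled on ribosomal protein genes. *Npas2* (ENSMUSG00000026077, chromosome 1, 39193731 to 39363236, plus strand), whose product can take the place of CLOCK, was at 102, 58.7 and 60.0 in sham and 88.5, 41.8 and 25.0 in injured arteries. Its groups overlapped, with a log2 fold change of -0.65 ± 0.45 (adjusted p = 0.297) that passed without injured replicate 1 (-1.12, adjusted p = 0.0496).

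The *Per* genes encode repressors of the BMAL1 pair. *Per2* (ENSMUSG00000055866, chromosome 1, 91415982 to 91459324, minus strand) was at 2482, 4547 and 4593 in sham arteries and 802, 1011 and 1748 in injured ones. Every injured library lay below every sham library, and the fall had an adjusted p of 0.00323. *Per1* (ENSMUSG00000020893, chromosome 11, 69095217 to 69109960, plus strand), with the E-box shown above, was at 2576, 3536 and 3247 in sham and 1769, 1676 and 2207 in injured arteries. It fell by 0.73 ± 0.16 without overlap between the groups (adjusted p = 0.00673). *Per3* (ENSMUSG00000028957, chromosome 4, 151003652 to 151044665, minus strand), with a pair of D-boxes, was at 2188, 3531 and 3259 in sham and 1809, 2197 and 3342 in injured arteries. These ranges overlapped widely, and *Per3* did not pass (log2 fold change -0.31 ± 0.25, adjusted p = 0.359). *Cry1* (ENSMUSG00000020038, chromosome 10, 85131700 to 85185064, minus strand), which encodes the repressor that works together with the PER proteins, was at 219, 379 and 493 in sham and 177, 257 and 311 in injured arteries. It too overlapped, at -0.52 ± 0.31 (adjusted p = 0.230).

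The genes of the nuclear receptors and of DBP all fell. *Dbp* (ENSMUSG00000059824, chromosome 7, 45705088 to 45710203, plus strand) was at 7698, 8157 and 5515 in sham arteries and 2437, 2679 and 2706 in injured ones. The injured libraries lay within 1.11-fold of each other and well below sham, and the fall of 1.44 ± 0.16 had the lowest adjusted p of the 10 genes, 0.000243. *Nr1d1* (ENSMUSG00000020889, chromosome 11, 98767932 to 98775333, minus strand) was at 7463, 4948 and 2935 in sham and 2900, 2111 and 1761 in injured arteries. The lowest sham library was only just above the highest injured one, and the fall was 1.12 ± 0.32 (adjusted p = 0.0255). *Nr1d2* (ENSMUSG00000021775, chromosome 14, 18204054 to 18239127, minus strand) was at 4848, 4532 and 4231 in sham and 3162, 3522 and 3659 in injured arteries, with no overlap and a smaller fall of 0.40 ± 0.11 (adjusted p = 0.0227). *Nr1d1* lost its call without any 1 of injured replicates 2 and 3 and sham replicates 1 and 2 (adjusted p = 0.0564 to 0.0864), and *Nr1d2* without any 1 of injured and sham replicates 1 and 2 (adjusted p = 0.0559 to 0.0972).

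The 3 injured and 3 sham libraries did not overlap in 6 of the 10 clock genes, 1 higher and 5 lower, against 51.3% of all genes tested, 26% higher and 25.3% lower, so the share of clock genes without overlap was near that of all genes. *Dbp* and *Per2* passed in all 21 settings run, *Per1* in 20, *Nr1d1* in 17, *Arntl* in 15 and *Nr1d2* in 13. Without the 3 libraries that stood apart, 3 of the 10 passed, *Dbp*, *Nr1d1* and *Per2*. *Arntl* was then at 1.99 (adjusted p = 0.106), *Per1* at -0.62 (adjusted p = 0.0721) and *Nr1d2* at -0.47 (adjusted p = 0.0842). Along with these genes, 7 of 8 smooth muscle markers fell, and 11 of 12 macrophage, 5 of 5 neutrophil, 5 of 6 tested lymphocyte, 5 of 6 fibroblast, 5 of 6 Schwann cell, 5 of 8 endothelial (*Cdh5*, *Kdr*, *Tie1*, *Emcn* and *Tek*) and 9 of 12 skeletal muscle markers rose. In the opposite direction to their lists, the fibroblast marker *Pi16* fell by 1.21 (adjusted p = 0.000366) and the skeletal muscle marker *Tcap* by 2.75 (adjusted p = 0.0268). The erythroid marker *Alas2* fell, and the adipocyte marker *Adipoq* and the hepatocyte marker *Cyp2e1* rose. The part of these cells was not tested.

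**Figure D2:**
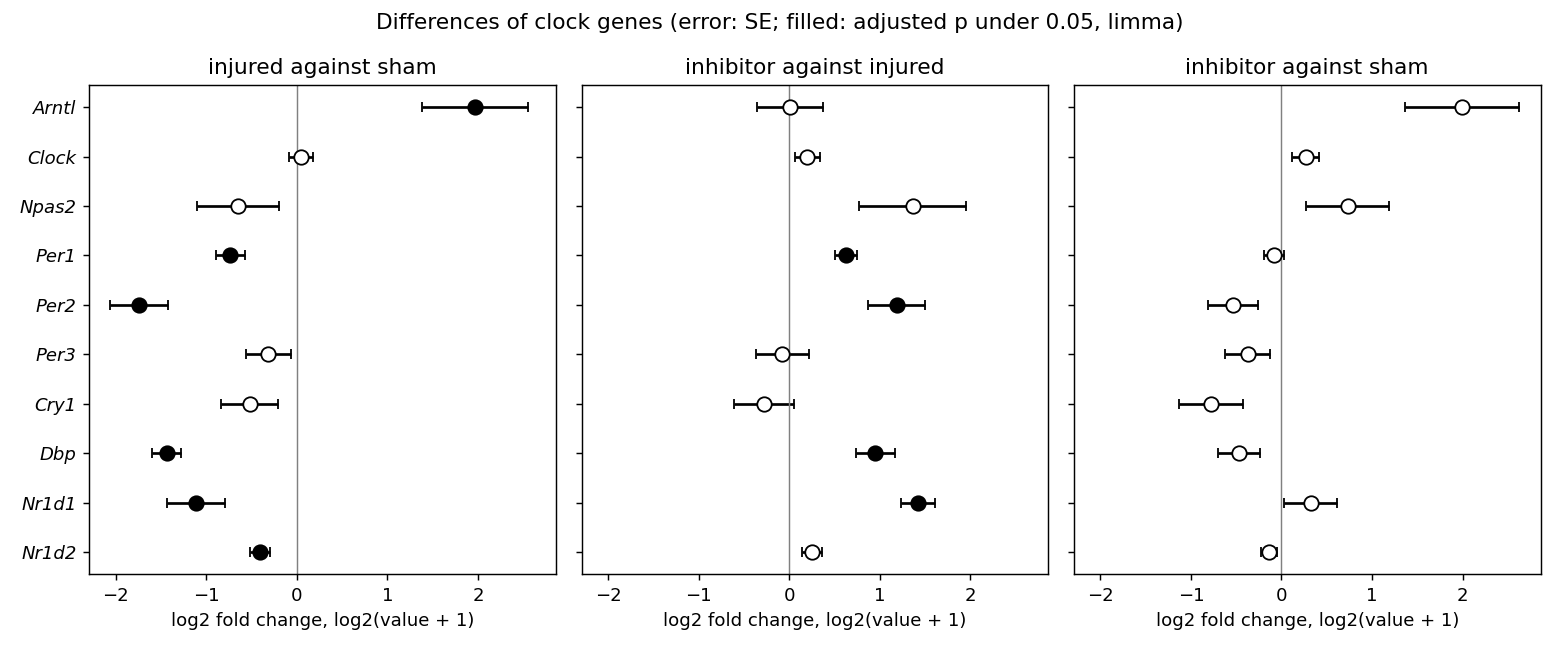
Log2 fold change of each clock gene in the 3 comparisons, on log2(normalised count + 1); error bars are SE and filled points passed at an adjusted p of 0.05 (limma). *Per1*, *Per2*, *Dbp* and *Nr1d1* lie below 0 in injured against sham arteries and above 0 in inhibitor-treated against injured arteries, and no point is filled in inhibitor-treated against sham arteries.

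Inhibitor-treated arteries were compared with injured arteries to ask which transcripts differ with FAK inhibition at day 14. *Per1*, *Per2*, *Dbp* and *Nr1d1* rose and none of the 10 clock genes fell, so that 4 of 10 passed. By limma 0 fell also at an unadjusted p under 0.05, and edgeR and DESeq2 called 0 downward. Over all 16901 genes tested 36.1% passed, 17.6% upward and 18.5% downward. With scaling on ribosomal protein genes, which put the median of all genes at 0.37, the split over all genes was 3308 upward and 1409 downward, and 5 of the clock genes rose and none fell. The median log2 fold change of the 10 genes was 0.44, against 0.0061 over all genes. The injured libraries are the same ones as in the comparison with sham, so the values of these comparisons are not independent of each other.

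*Nr1d1* rose the most, from the injured values above to 5812, 6835 and 5201. Every inhibitor-treated library lay above every injured one, and the log2 fold change was 1.42 ± 0.19 (adjusted p = 0.00137). *Nr1d1* was the one clock gene that passed in all 21 settings here. *Dbp* stood at 3605, 5210 and 6788, and rose by 0.95 ± 0.21 (adjusted p = 0.0120). Its highest library was inhibitor-treated replicate 3, the one with the hepatocyte markers. *Dbp* passed in 20 of 21 settings, among them the one without this library alone. Without it and injured replicate 2, the other library of this comparison that stood apart, the difference was 0.76 (limma adjusted p = 0.0623). *Nr1d2* stood at 3683, 4086 and 4537, above all injured libraries, but did not pass the test (log2 fold change 0.25 ± 0.11, adjusted p = 0.115).

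*Per2* stood at 1855, 2715 and 3302 and rose by 1.19 ± 0.32 (adjusted p = 0.0237). The lowest inhibitor-treated library was close to the highest injured one, and the call was lost without any 1 of inhibitor-treated replicates 2 and 3 and injured replicates 1 and 2 (adjusted p = 0.0676 to 0.0754). *Per1* stood at 2960, 2946 and 2770, a narrow range above all injured libraries, and rose by 0.63 ± 0.12 (adjusted p = 0.00628). *Per3*, at 1612, 2233 and 3127, and *Cry1*, at 133, 195 and 302, overlapped the injured libraries. Their log2 fold changes of -0.08 ± 0.29 and -0.28 ± 0.33 did not pass (adjusted p = 0.855 and 0.536), and both were above 0 with scaling on ribosomal protein genes.

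None of the activators passed. *Arntl* stood at 141, 68.0 and 54.6, a range that enclosed that of the injured libraries, with a log2 fold change of 0.01 ± 0.36 (adjusted p = 0.990). *Npas2* stood at 255, 90.1 and 71.0, and *Clock* at 1714, 1368 and 1207. For *Npas2* the log2 fold change was 1.36 ± 0.59 (adjusted p = 0.111), and it passed in 6 of 21 settings, among them DESeq2 on the recovered reads (1.43, adjusted p = 0.0457). The authors' deposited test, also among the 6, gave the same 1.43 and is not a separate result. For *Clock* it was 0.20 ± 0.14 (adjusted p = 0.290).

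Groups did not overlap in 5 of the 10 clock genes, all higher in inhibitor-treated arteries, against 51.6% of all genes tested, 26.1% higher and 25.5% lower, so here too the share was near that of all genes. Without the 3 libraries that stood apart, *Nr1d1* was the 1 clock gene that passed, while *Per1* was at 0.58 (adjusted p = 0.0593) and *Per2* at 0.92 (adjusted p = 0.180). Along with the clock genes, 7 of 8 smooth muscle markers, all 4 erythroid markers and 2 of 5 neutrophil markers rose, and 12 of 12 macrophage, 5 of 6 fibroblast, 5 of 8 endothelial and 6 of 6 adipocyte markers fell. The fibroblast marker *Pi16* rose, by 0.40 (adjusted p = 0.0278). Of 8 lymphocyte markers 2 rose and 1 fell. Of the skeletal muscle markers 2 of 12 fell, of the Schwann cell markers 2 of 6, and the hepatocyte marker *Cyp2e1* fell. The part of these cells was not tested.

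Inhibitor-treated arteries were also compared with sham arteries. By limma 0 of the 10 clock genes passed, against 6.08% of 16166 genes tested, 5.15% upward and 0.934% downward. Over all genes, quantile normalisation called 617 upward and 220 downward and ribosomal protein scaling 1261 and 36, against 832 and 151. At an unadjusted p under 0.05 there was 1 clock gene, *Arntl*. EdgeR called 0, and DESeq2 and the authors' deposited table each called 1, *Arntl* in both. DESeq2 and the authors' table gave the same fold change for it and each called 1442 of all genes, so they do not count as separate results. The sham libraries of *Arntl*, given above, lay below all inhibitor-treated ones, and the log2 fold change was 1.99 ± 0.63 (adjusted p = 0.119), against 1.79 in the authors' deposited table. Groups did not overlap in *Arntl* alone among the 10, against 27.9% of all genes, 14.7% higher and 13.1% lower. *Cry1* followed at -0.78 ± 0.35 (adjusted p = 0.259), *Npas2* at 0.73 ± 0.46 (adjusted p = 0.409), *Per2* at -0.53 ± 0.28 (adjusted p = 0.320) and *Dbp* at -0.47 ± 0.23 (adjusted p = 0.296). The other 5 lay between -0.38 and 0.32, and *Per1*, at -0.09, was above 0 with ribosomal protein scaling. Without the 3 libraries that stood apart 1 gene passed, *Dbp* at -0.86 (adjusted p = 0.0161). In this comparison 5 of 5 neutrophil, 6 of 8 lymphocyte, 2 of 12 macrophage and all 4 erythroid markers rose, and the fibroblast marker *Pi16* fell. These p-values do not show that the groups are alike, and the 3 inhibitor-treated libraries were widely spread for several genes. The highest exceeded the lowest by 3.59-fold for *Npas2*, 2.58-fold for *Arntl* and 2.27-fold for *Cry1*. For *Per3*, *Dbp* and *Per2* it did so by 1.94-fold, 1.88-fold and 1.78-fold, and for the others by 1.07-fold to 1.42-fold.

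A ratio of *Arntl* to a gene of the opposite daily phase removes most of the dependence on how libraries are scaled, and is given per library as a description. It was taken on normalised count + 1, so some dependence on scaling stays. The added 1 raises the ratio most where *Arntl* was low, as in sham replicate 2 (7.05). The log2 ratio of *Arntl* to *Nr1d1* was -7.28, -9.26 and -7.01 in sham arteries, -4.94, -4.59 and -4.75 in injured arteries, and -5.36, -6.63 and -6.55 in inhibitor-treated arteries. The 3 groups did not overlap, with injured arteries highest, sham lowest and inhibitor-treated in between. The log2 ratio of *Arntl* to *Dbp* was -7.32, -9.99 and -7.92 in sham, -4.69, -4.94 and -5.37 in injured, and -4.67, -6.24 and -6.93 in inhibitor-treated arteries. Here inhibitor-treated replicate 1 was level with the injured libraries, and the other inhibitor-treated libraries lay between the groups.

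Within each group the same libraries tended to be high or low for several clock genes. In all 3 groups, replicate 1 was the highest library for *Arntl*, *Clock* and *Npas2*, the activators. It was the lowest for *Per2*, *Per3* and *Cry1*, which encode repressors of the BMAL1 pair. For *Clock* in injured arteries the lead was narrow, 1286 against 1266 in replicate 3. *Per1*, the other of the 10 that encodes a repressor of the pair, shared no such place: replicate 1 was its lowest library in sham and its highest in inhibitor-treated arteries. Nor did *Nr1d1* and *Nr1d2*, whose products repress *Arntl*. Replicate 1 was the highest library of *Nr1d1* in sham and injured arteries. For *Nr1d2* it was the highest in sham and the lowest in injured and inhibitor-treated arteries. Replicate 3 was the highest for *Per2* and *Cry1* and the lowest for *Nr1d1* in all 3 groups. The spread differed by gene. It was narrow for *Nr1d2*, whose highest library exceeded the lowest by 1.15-fold in sham, 1.16-fold in injured and 1.23-fold in inhibitor-treated arteries. *Cry1* in replicate 3 exceeded replicate 1 by 2.25-fold in sham, 1.76-fold in injured and 2.27-fold in inhibitor-treated arteries. *Npas2* in replicate 1 exceeded the lowest library of its group by 1.74-fold, 3.54-fold and 3.59-fold. Among the 10 clock genes, 4 had their lowest library at the same number in all 3 groups and 5 their highest, against 14.05% and 13.63% of 11681 genes with a mean level of at least 100. *Arntl* and *Npas2* lie under that level (means of 64.9 and 88.0 over the 9 libraries), and among the other 8 clock genes the counts were 4 and 3. Both held for 2 of the 10, *Per2* and *Cry1*, against 3.835% of all these genes. The labels do not say that a replicate number marks a shared day or litter, and libraries were not treated as paired. Clock genes are linked to one another in one loop, so their shared order is not a set of independent observations.

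**Figure D3:**
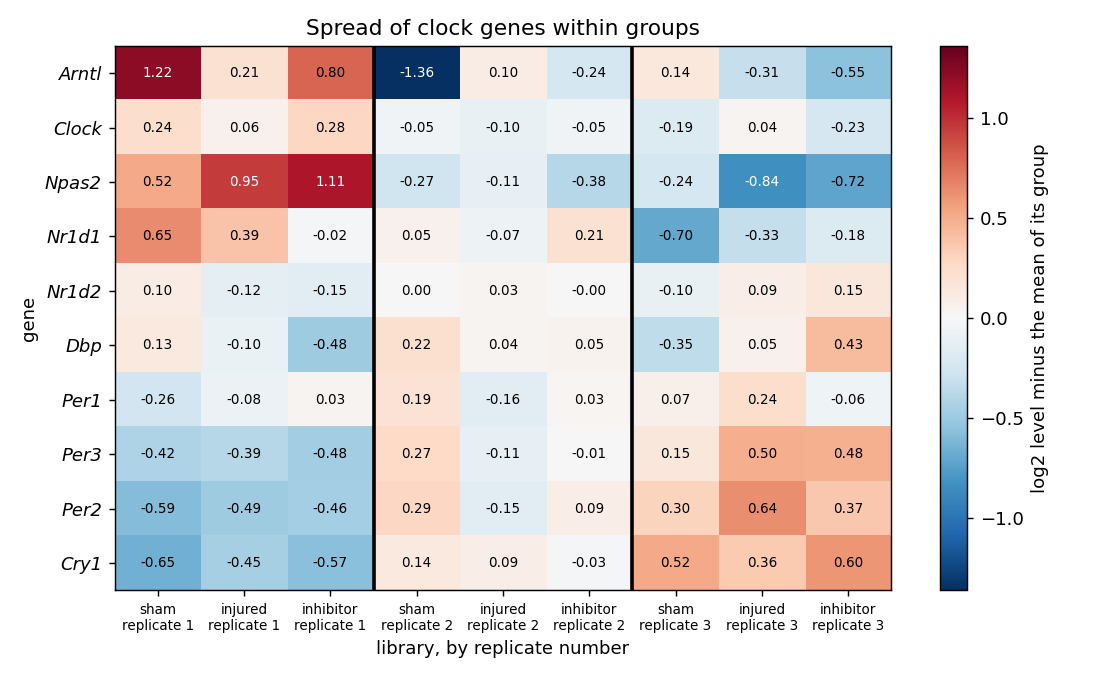
Deviation of each clock gene, in log2, from the mean of its group, with the 9 libraries ordered by replicate number; red is above and blue below the group mean. *Npas2* is above its group mean in all 3 libraries numbered 1 (0.52, 0.95 and 1.11) and *Cry1* below it (-0.65, -0.45 and -0.57), with the opposite signs in the 3 libraries numbered 3.

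Other genes of the clock machinery were read from a list of 21, of which 20 had a row. In injured against sham arteries 4 passed upward and 6 downward, against 20.6% and 16.8% of all genes, and with ribosomal protein scaling 1 and 5. *Hlf*, which encodes a relative of DBP that binds the same D-boxes, was at 1681, 2103 and 2015 in sham and 496, 586 and 747 in injured arteries, and fell by 1.68 ± 0.17 (adjusted p = 0.000135). *Ciart*, a repressor of the BMAL1 pair, was at 570, 964 and 549 against 214, 238 and 285 and fell by 1.46 ± 0.23 (adjusted p = 0.00140). *Cry2*, the other cryptochrome, fell by 0.93 ± 0.13 (adjusted p = 0.000791). *Timeless*, which in mammals also works in DNA replication, rose by 1.59 ± 0.20 (adjusted p = 0.000497). The median of the list was -0.19, and without the 3 libraries that stood apart 7 of the 20 passed. With the inhibitor, 5 rose and 3 fell relative to injured arteries, against 17.6% and 18.5% of all genes, with a median of 0.11. *Timeless* fell by 1.69 ± 0.18 (adjusted p = 0.000467), as did *Bhlhe40*, an E-box repressor, by 0.72 ± 0.19 (adjusted p = 0.0209). *Hlf* was at 849, 1217 and 1895 and rose by 1.06 ± 0.29 (adjusted p = 0.0263), and *Cry2* rose by 0.86 ± 0.15 (adjusted p = 0.00428). With ribosomal protein scaling 5 rose and 1 fell, and without the 3 libraries that stood apart 1 passed, *Timeless*. In inhibitor-treated against sham arteries limma called 0 of the 20 (3 at an unadjusted p under 0.05) and edgeR and DESeq2 also 0.

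Among 16 genes known to be under clock control in other tissues, 3 rose and 6 fell in injured against sham arteries, where 20.6% of all genes rose and 16.8% fell, with a median of -0.12. *Klf15*, a clock-driven transcription factor, was at 1331, 1459 and 1653 in sham and 378, 364 and 502 in injured arteries and fell by 1.85 ± 0.15 (adjusted p = 6.25e-05). *Ppara*, a lipid-sensing nuclear receptor, fell by 1.69 ± 0.45 (adjusted p = 0.0179), and *Por*, a cytochrome P450 reductase, by 1.06 ± 0.18 (adjusted p = 0.00207). Without the 3 libraries that stood apart 10 passed. With the inhibitor 5 rose and 4 fell relative to injured arteries (17.6% and 18.5% of all genes), with a median of -0.14, and with ribosomal protein scaling 5 rose and none fell. *Klf15* was at 1356, 1502 and 1077 and rose by 1.67 ± 0.17 (adjusted p = 0.000467). *Klf10*, another clock-driven factor, fell by 0.82 ± 0.12 (adjusted p = 0.00199) and *Tsc22d3* by 0.79 ± 0.18 (adjusted p = 0.0120), both relative to injured arteries. Without the 3 libraries that stood apart 5 passed in this comparison. In inhibitor-treated against sham arteries limma and edgeR called 0 of the 16 (3 at an unadjusted p under 0.05) and DESeq2 1.

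**Figure D4:**
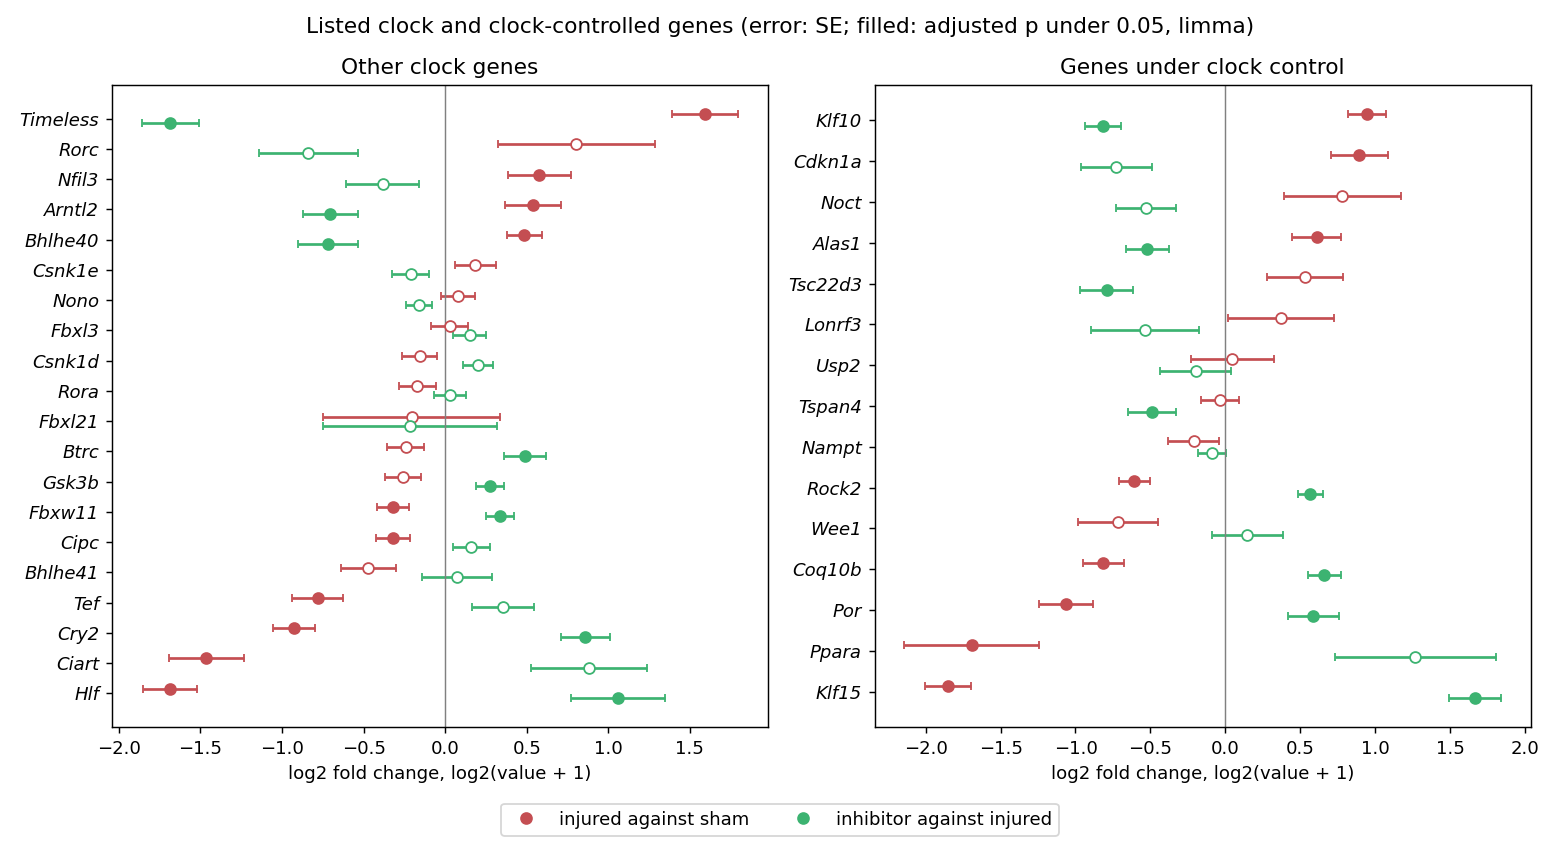
Log2 fold change of 20 further clock genes and 15 of the 16 genes under clock control, in injured against sham (red) and inhibitor-treated against injured arteries (green); error bars are SE and filled points passed at an adjusted p of 0.05 (limma). *Hlf*, *Cry2* and *Klf15* lie below 0 with injury and above 0 with the inhibitor, and *Timeless* and *Klf10* the other way round, where the injured libraries are shared by both comparisons.

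*Per1*, *Per2* and several output genes also respond to glucocorticoids and to cAMP and growth factor signals, and genes of these responses were read beside them. Of 15 genes that glucocorticoids induce, 1 rose and 3 fell with injury: *Dusp1*, a phosphatase of MAP kinases, fell by 1.39 ± 0.11, *Zbtb16* by 0.99 ± 0.28 and *Klf9* by 0.83 ± 0.14, and *Cdkn1a* rose by 0.89 ± 0.19 (adjusted p = 5.93e-05, 0.0229, 0.00188 and 0.00622). With the inhibitor 2 rose and 2 fell relative to injured arteries. By limma 4 of the 15 passed in both comparisons, against 37.3% and 36.1% of all genes. With 1 library left out at a time, 3 to 7 passed with injury and 3 to 6 with the inhibitor. DESeq2 and the authors' deposited test called more of the 15 than limma did in inhibitor-treated against injured arteries, so this share depends on the test. *Dusp1* rose by 0.99 ± 0.09 (adjusted p = 0.000314) and *Klf9* by 0.65 ± 0.13 (adjusted p = 0.00805), while *Ddit4* fell by 1.12 ± 0.32 (adjusted p = 0.0311) and *Tsc22d3* by the value above. With ribosomal protein scaling 3 rose and none fell, and without the 3 libraries that stood apart *Dusp1* was the 1 gene that passed. *Fkbp5*, a much used marker of glucocorticoid action chosen here after its values were seen, was at 1578, 1272 and 2390 in sham, 1356, 1171 and 1606 in injured and 899, 2140 and 868 in inhibitor-treated arteries, with overlap in all comparisons.

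Of 16 immediate early and cAMP-responsive genes, 3 rose and 6 fell with injury, against 20.6% and 16.8% of all genes. *Egr2*, an early growth response factor, rose by 2.12 ± 0.19, while *Btg2* fell by 1.42 ± 0.15, *Atf3* by 1.28 ± 0.21 and *Dusp1* by the value above (adjusted p = 9.02e-05, 0.000164 and 0.00182 for *Egr2*, *Btg2* and *Atf3*). With the inhibitor 6 rose and 2 fell relative to injured arteries, against 17.6% and 18.5% of all genes. *Egr2* fell by 2.07 ± 0.16, while *Nr4a3*, an orphan nuclear receptor, rose by 1.69 ± 0.35 and *Btg2* by 1.27 ± 0.14 (adjusted p = 0.000142, 0.00844 and 0.000671). The medians of the list were 0.01 and -0.05. In inhibitor-treated against sham arteries *Dusp1*, which stands in both lists, was the 1 gene called in each, at -0.38 ± 0.07 (adjusted p = 0.0168), and with ribosomal protein scaling it did not pass.

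Some clock genes share exon sequence with a gene on the opposite strand, and the sources used here do not say whether the counting used strand. Exons of *Nr1d1* overlap those of *Thra*, the thyroid hormone receptor alpha gene, over 263 bases or 8.55% of its exon length. In normalised counts, not divided by length, *Thra* lay at 2079 to 4950 in the 9 libraries, above *Nr1d1* in sham replicate 3 (3185) and in injured replicates 1 (2953) and 3 (2150) and below it in the 6 others. By limma *Thra* itself fell by 0.68 ± 0.17 with injury (adjusted p = 0.0140) and rose by 0.82 ± 0.18 with the inhibitor relative to injured arteries (adjusted p = 0.0109). How reads of the shared stretch were counted is not known, and their part in the *Nr1d1* values was not tested. Exons of *Dbp* overlap those of *Sphk2* over 539 bases or 18.0%. In the same unit *Sphk2* lay at 416 to 681 in the 9 libraries, below *Dbp* in each of them, and its log2 fold changes were -0.27 ± 0.14 (adjusted p = 0.161) and 0.41 ± 0.13 (adjusted p = 0.0439). *Arntl* shares 33 bases with an annotated antisense RNA, *Gm45355*, which had no row.

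Genes outside all the lists used here were ranked by how closely their levels followed *Arntl* and *Dbp* over the 9 libraries. The measure was Pearson's r of log2 levels, among 11533 such genes with a mean level of at least 100. All listed clock, clock-controlled, response and marker genes were left out beforehand, so none of them could appear. These values are descriptions, since the libraries share groups and scaling. For *Arntl* the 5 highest were *Osbpl8* (0.907), *Slbp* (0.898), *Eaf1* (0.894), *Cox6b2* (0.889) and *Ptpn12* (0.888), and the 3 lowest *Cc2d1b* (-0.920), *Rhbdl3* (-0.919) and *Elmod3* (-0.916). For *Dbp* the highest were *Plp2* (0.987), *Dhx16* (0.981), *Gpr107* (0.975), *Nkrf* (0.969) and *Atg13* (0.967), and the lowest *Nectin2* (-0.965), *Hoxc6* (-0.964) and *Tenm4* (-0.961). *Plp2* was at 1684, 1622 and 1449 in sham, 1124, 1097 and 1108 in injured and 1290, 1431 and 1508 in inhibitor-treated arteries, lowest in the injured libraries as *Dbp* was. With Spearman's rho in place of r, 0 of the 5 genes nearest *Arntl* and 1 of those nearest *Dbp* stayed on the list.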

How the data were processed

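The authors deposited 3 tables, 1 per pair of groups, that hold normalised read counts per gene and library (a signal made by dividing reads by 1 factor per library, with separate factors in each table), a log2 fold change, and a p-value and adjusted p-value, per the file headers. The genome build was mm10 (GRCm38), per the submitters' processing notes. The aligner, the counting program and the test of the authors are each not stated in those notes or elsewhere in the labels. Dividing each column by the value of 1 read returned whole reads for 100% of values within 0.01 of a read. Levels over 3 groups were rescaled from these reads with 1 median-of-ratios factor per library over 16234 genes. Each comparison was fitted over its whole table (limma 3.58.1, trended variance, R 4.3.3) with group as the only term, and values were log2(normalised count + 1). Genes with a mean under 10 were left out, which removed none of the 10 clock genes. On this scale the added 1 shrinks the fold changes of low genes, while a mean of logs gives a library near 0 more weight than a ratio of means. EdgeR 4.0.16 and DESeq2 1.42.0 on recovered reads, other scalings, filters, pseudocounts, sample weights and left-out libraries were alternatives, and the fits were tested on simulated data. Replicates correlated at 0.955 to 0.987 (Pearson, log2), and their chi-square per degree of freedom was 11.6 to 102, so none repeated another. No exact permutation test was used, since with 3 libraries a side its two-sided p is never under 0.1. Exon lengths and positions are from GENCODE vM21. The clock genes and all lists were chosen with earlier results of these data known. All 10 clock genes are named; of each other list, up to 4 genes per comparison that passed without overlap between groups, by size of change, are named, and others only as chosen after their values were seen. One gene of the list under clock control is not reported here by name, though it stands in the counts of that list.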

Additional observations from a re-analysis of the deposited data

How the results depend on the processing

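For the log2 fold changes of the 10 clock genes, 200 values per comparison were recomputed: 174, 177 and 189 kept their direction and their side of the threshold in injured against sham, inhibitor-treated against injured and inhibitor-treated against sham arteries, 19, 7 and 0 lost the call, 4, 8 and 8 gained it, and 3, 8 and 3 changed sign. None of the sign changes was in a gene that passed. They were *Clock* with injury (-0.18 with ribosomal protein scaling, -0.052 with sample weights, -0.044 without sham replicate 3, and -0.044 to 0.17 over all left-out libraries), and, in inhibitor-treated against injured arteries, *Arntl* (-0.023 with sample weights, -0.39 without inhibitor-treated replicate 1, -0.15 without injured replicate 3, range -0.39 to 0.28), *Per3* (0.29 with ribosomal protein scaling, 0.16 and 0.17 without the same 2 libraries, range -0.32 to 0.17) and *Cry1* (0.088 with ribosomal protein scaling, 0.010 without inhibitor-treated replicate 1, range -0.58 to 0.010). Against sham they were *Per1* (0.032 with ribosomal protein scaling, 0.0054 without sham replicate 2, range -0.22 to 0.0054) and *Nr1d1* (-0.023 without sham replicate 3, range -0.023 to 0.65). Ribosomal protein scaling put the median of all genes at -0.24, 0.37 and 0.11 in the 3 comparisons. The cause of these changes was not tested.

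Without the 3 libraries that stood apart, 3, 1 and 1 clock genes passed in the 3 comparisons (6, 4 and 0 with all libraries), from fewer libraries. In inhibitor-treated against injured arteries the same setting called 1 of the other clock genes, 5 of the genes under clock control and 1 glucocorticoid gene. Against sham it called 1, 2 and 0. With sample weights 7 clock genes, 14 other clock genes and 8 glucocorticoid genes passed in inhibitor-treated against injured arteries, 9 glucocorticoid genes passed with injury, and 2 immediate early genes against sham; these weights also raised the calls over all genes to 9621 with injury and 10651 with the inhibitor. Quantile normalisation and ribosomal protein scaling each called 6 other clock genes with injury. Ribosomal protein scaling called 5 genes under clock control in inhibitor-treated against injured arteries, and against sham 1 other clock gene and 0 glucocorticoid genes. DESeq2 and the authors' deposited test each called 7 glucocorticoid genes in inhibitor-treated against injured arteries, and against sham 1 clock gene, 1 gene under clock control, 2 glucocorticoid and 2 immediate early genes. The genes nearest *Arntl* and *Dbp* by Spearman's rho shared 0 and 1 with those by Pearson's r.

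Leaving out 1 library at a time gave 3 to 5 clock genes with injury (3 without injured replicate 2 or sham replicate 2), 3 to 4 with the inhibitor against injured and 0 to 0 against sham. For the other clock genes it gave 6 to 9, 3 to 9 and 0 to 1, for genes under clock control 6 to 10, 6 to 10 and 0 to 1, for glucocorticoid genes 3 to 7, 3 to 6 and 0 to 1, and for immediate early genes 6 to 9, 7 to 8 and 0 to 1. For the mean log2 ratio of *Arntl* to *Nr1d1*, it gave differences of 2.38 to 3.51, -1.83 to -1.19 and 0.96 to 2.09.

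The labels do not say that replicate numbers pair libraries, and libraries were not taken as paired. Over all genes, the correlation of deviations between libraries of the same number ran from -0.0742 to 0.214, against -0.228 to 0.185 between different numbers. This does not settle whether equal numbers share a condition that bears on the clock genes, several of which were high or low at the same number in all 3 groups. With the replicate block, 6, 5 and 3 clock genes passed in the 3 comparisons, where *Cry1* joined and *Nr1d2* left the first, *Npas2* joined the second, and *Arntl*, *Cry1* and *Per2* passed in the third. It called 8 glucocorticoid genes in inhibitor-treated against injured arteries, and against sham 1 gene under clock control and 3 immediate early genes. A replicate block in a fit of all 9 libraries, chosen after seeing the data, called 7, 5 and 2 clock genes, 7 glucocorticoid genes in inhibitor-treated against injured arteries, and 1 gene under clock control and 0 glucocorticoid genes against sham. *Arntl* is limited by depth, at 6 to 148 reads per library.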
